A study of Homo sapiens with 2 samples.

Results

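The genes described here copy DNA and supply its building blocks. They comprise 39 genes chosen by name, all of which were among the 26447 gene symbols listed in both deposited tables. RNA sequencing had been run on C4-2B ENZR cells, a human prostate cancer line that grows in the prostate cancer drug enzalutamide, here at 20 µM in both groups. The shNRP2 group carried a lentiviral hairpin against the coding region of NRP2, the gene of the cell surface co-receptor neuropilin-2, and the shControl group, labelled WT, carried a non-targeting hairpin; both were selected with an antibiotic as stable lines. Each group holds 1 library and only 1 hairpin against NRP2 was used, so the spread between cultures is unknown, no p-value is given for the conditions, and each difference describes these 2 libraries. The series concerns NRP2 in neuroendocrine prostate cancer, and the comparison asks how the replication genes stood when NRP2 was targeted.

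Before S phase, the origin recognition complex and its loading factors CDC6 and CDT1 place the ring-shaped helicase of MCM2 to MCM7 on DNA, which is called licensing. CDC45 and the GINS complex then turn the ring into an active helicase, DNA polymerases and primase copy the opened strands, and the clamp PCNA, closed around DNA by the RFC loader, holds polymerases in place. Many of these genes are transcribed by E2F factors once RB is phosphorylated, and their RNA is therefore often read as a sign of how many cells are proliferating. In bulk RNA, fewer cells in S phase and less RNA per cell cannot be told apart.

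Promoter sequence is shown first, because an E2F-type motif is what many of these genes are known to share. Promoter windows from RefSeq (GRCh38.p14), running from 250 bases before to 50 bases after a listed gene start, were matched by symbol for 35 of the 39 genes; MCM4, MCM5, GINS4 and WDR76 had none. E2F-type matches were searched on both strands as TTTCCCGC, TTTGGCGC, TTTCGCGC and TTTGCCGC, which can overlap one another in the palindrome TTTGGCGCGAAA. Of the 47 windows of replication genes, 21 held at least 1 such match, 44.7%, against 3.31% of all 35116 windows and 4.93% of the windows of compared genes, those expressed here at a mean of at least 1 CPM. Counted by gene, 20 of 35 replication genes had a match in some window, 57.1%, against 3.99% of all 27305 genes with a window and 6.71% of compared genes. The letters CCAAT, the core of the NF-Y motif, were found in 29 of the 47 windows, 61.7%, against 34.6% of all windows and 34.7% of those of compared genes. TTTGAA, the core of the CHR element known from genes of mitosis, was in 1 of the 47 windows, that of RRM1, or 2.13%, against 15.2% of all windows and 10.2% of those of compared genes. A match describes the letters and is not evidence of binding.

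The 160 bases before the start are printed for 6 genes, chosen after their values were seen because they span the measured range from the higher to the lower genes while each carrying an E2F-type match. Where a gene had several windows, the window with the most matches is shown. Capitals mark E2F-type matches and CCAAT, either of which may appear as its reverse complement (GCGGGAAA or ATTGG, for example). The coordinates are chr19:4909341-4909500 on the plus strand for UHRF1, chr20:33686386-33686545 on the minus strand for E2F1, chr20:5126623-5126782 on the minus strand for PCNA, chr2:135876444-135876603 on the minus strand for MCM6, chr6:24775253-24775412 on the plus strand for GMNN and chr16:85688955-85689114 on the minus strand for GINS2. Each sequence reads 5′ to 3′ along its gene.
UHRF1: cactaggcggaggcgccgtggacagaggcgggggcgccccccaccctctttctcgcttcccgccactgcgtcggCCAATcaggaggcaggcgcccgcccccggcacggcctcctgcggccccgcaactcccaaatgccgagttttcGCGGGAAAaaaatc
E2F1: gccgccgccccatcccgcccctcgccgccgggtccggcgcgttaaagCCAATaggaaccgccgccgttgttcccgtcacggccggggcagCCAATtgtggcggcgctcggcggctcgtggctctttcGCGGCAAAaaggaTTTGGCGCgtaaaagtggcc
PCNA: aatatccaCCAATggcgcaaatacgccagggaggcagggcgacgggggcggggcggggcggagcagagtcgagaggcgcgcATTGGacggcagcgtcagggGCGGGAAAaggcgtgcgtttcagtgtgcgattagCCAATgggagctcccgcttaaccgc
MCM6: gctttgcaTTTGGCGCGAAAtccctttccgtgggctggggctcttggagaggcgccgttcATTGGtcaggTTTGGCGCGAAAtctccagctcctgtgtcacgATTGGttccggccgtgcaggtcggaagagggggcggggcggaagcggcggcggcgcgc
GMNN: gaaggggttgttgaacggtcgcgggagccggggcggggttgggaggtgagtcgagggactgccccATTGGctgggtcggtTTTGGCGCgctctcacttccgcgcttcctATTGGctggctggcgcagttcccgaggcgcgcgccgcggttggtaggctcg
GINS2: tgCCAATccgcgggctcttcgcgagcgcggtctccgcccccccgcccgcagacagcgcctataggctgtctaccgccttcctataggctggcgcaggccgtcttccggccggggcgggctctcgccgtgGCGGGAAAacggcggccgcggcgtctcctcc
In MCM6 the palindrome occurs at 2 places, whose first bases lie at -152 and -90 relative to the start. The E2F1 promoter has E2F-type matches that begin at -33 and -20 relative to its own start. UHRF1, E2F1, PCNA and MCM6 were higher in the shNRP2 library and GMNN and GINS2 were lower. The choice of these 6 genes put an E2F-type match on both sides. Across the 35 genes, the median log2 change was 0.04 for the 20 with an E2F-type match and 0.04 for the 15 without one.

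Levels are given in CPM as deposited, that is, the authors' read counts per gene divided by a library size that the TMM method had adjusted. Change is log2((shNRP2 CPM + 1)/(shControl CPM + 1)), and the ratio of a gene is its shNRP2 CPM over its shControl CPM. Ratios carry exact conditional binomial 95% intervals from whole reads recovered from the tables; they hold counting error and nothing else, because reads lack molecular identifiers and no culture was repeated. The shNRP2 library held 22992304 reads and the shControl library 21052178. NRP2 itself had 7 reads in the shNRP2 library and 20 in the shControl library, at 0.330 CPM in shNRP2 and 0.974 CPM in shControl, a ratio of 0.339 (0.121 to 0.835), so the check of the targeted gene rests on few reads. Genes known from prostate epithelium were present: the protease gene TMPRSS2 was at 181 CPM in shNRP2 and 116.7 CPM in shControl, the keratin KRT8 was at 616 CPM in shNRP2 and 457 CPM in shControl, the transcription factor FOXA1 at 302 CPM in shNRP2 and 453 CPM in shControl, and KLK3, the gene of prostate-specific antigen, at 41.0 CPM in shNRP2 and 5.60 CPM in shControl. Of 10 markers of fibroblasts, leukocytes and endothelium, DCN was at 0 reads in both libraries, PTPRC, CD3E, PECAM1 and CDH5 had at most 6 reads in either, and the most abundant was COL1A1, at 32.5 CPM in shNRP2 and 41.5 CPM in shControl. CD68, a macrophage marker, was at 9.95 CPM in shNRP2 and 6.67 CPM in shControl, a ratio of 1.49 (1.198 to 1.86), VWF at 3.40 CPM in shNRP2 and 3.75 CPM in shControl, COL1A2 at 1.23 CPM in shNRP2 and 1.46 CPM in shControl, and LUM at 0.943 CPM in shNRP2 and 1.02 CPM in shControl.

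As a group, the replication genes were nearly level between the libraries. Their levels ran from 18.3 to 516 CPM in the shNRP2 library and from 14.8 to 572 CPM in the shControl library, and together they summed to 5462 CPM in shNRP2 and 5297 CPM in shControl. All 39 passed the filter of a mean of at least 1 CPM that left 13316 genes for comparison, and the fewest reads behind a value was 305. None was at least 1.5-fold higher or lower on the log2(CPM + 1) scale, against 5.78% of all compared genes higher and 3.57% lower. Of all genes past 1.5-fold, 61.8% were on the high side as deposited and 47.6% with equal library totals. At a lower threshold on the same scale, 1 of 39 was at least 25% higher, against 15.1% of all compared genes, and 0 of 39 were at least 20% lower, against 12.1%. Of all genes past that threshold, 55.7% were on the high side as deposited and 39.1% with equal library totals, under which 1 of 39, GINS2, was at least 20% lower. Since these genes are well expressed, the 8714 compared genes within the same range of mean CPM are a closer background: 10.8% of those were at least 25% higher and 8.38% at least 20% lower. At 1.5-fold, 239 of those 8714 genes were higher and 171 lower, smaller shares than over all compared genes. The SD of log2 changes was 0.16 over the 39 genes, against 0.30 over those 8714 genes and 0.37 over all compared genes. The median change was 0.04 for the 39 genes and 0.03 for all compared genes, and that of the 39 turned to -0.04 with equal library totals, where the median of all genes was -0.05.

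**Figure D1:**
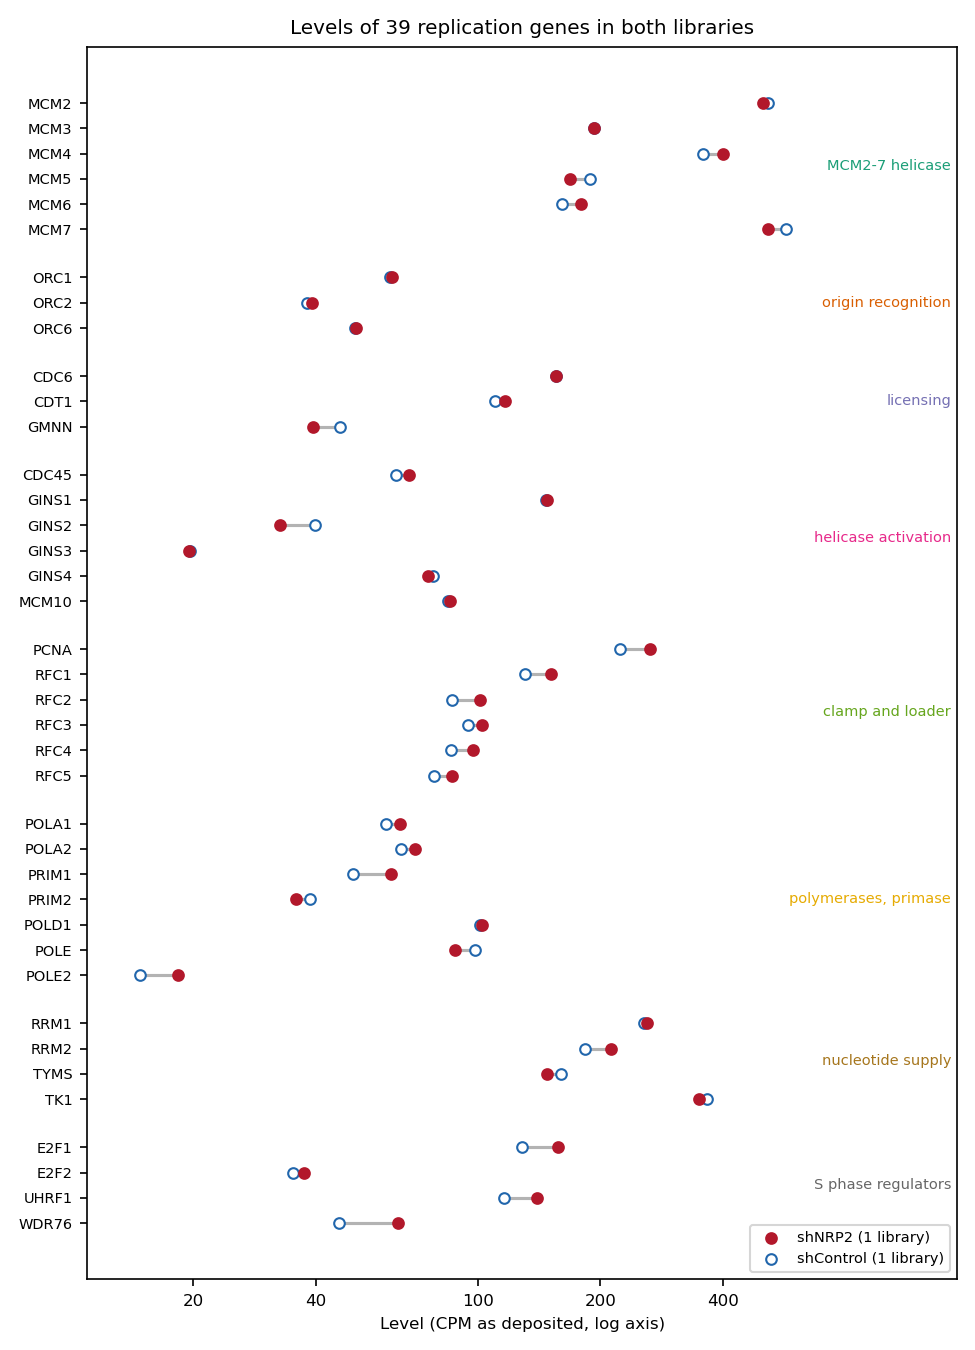
Level of each of the 39 genes in CPM as deposited (log axis), with a filled point for the shNRP2 library and an open point for the shControl library, grouped by role. The points of a gene lie close together throughout, and WDR76, at 63.6 CPM in shNRP2 and 45.6 CPM in shControl, has the widest gap in ratio.

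The MCM2 to MCM7 ring, the motor of the replicative helicase, was split in direction. MCM4 was at 401 CPM in the shNRP2 library and 357 CPM in the shControl library, a ratio of 1.12 (1.09 to 1.16). MCM6 was at 179 CPM in shNRP2 and 161 CPM in shControl, a ratio of 1.11 (1.06 to 1.17). These 2 subunits were higher in the shNRP2 library, and they kept their side under every scaling tried. MCM7 was at 516 CPM in shNRP2 and 572 CPM in shControl, a ratio of 0.902 (0.879 to 0.926), and its exons overlap in part those of AP4M1 on the other strand, at 24.0 CPM in shNRP2 and 27.0 CPM in shControl. MCM5 was at 168 CPM in shNRP2 and 188 CPM in shControl, a ratio of 0.896 (0.856 to 0.938). MCM5 and MCM7 were thus lower. Every other scaling tried lowered the change of each replication gene further, so none could have moved these 2 to the other side. MCM2 was at 500.2 CPM in shNRP2 and 516 CPM in shControl, a ratio of 0.969 (0.943 to 0.996), and MCM3 at 193.3 CPM in shNRP2 and 192.9 CPM in shControl, a ratio of 1.00 (0.959 to 1.05). The reads of MCM4 over those of MCM5 were 2.38 in the shNRP2 library and 1.90 in the shControl library. A single scaling factor per library cannot move this quantity. The ratio of ratios was 1.253 (1.18 to 1.32) for the pair at the extremes of the ring. All 7 pairs of genes set against each other here and below were chosen after the values were seen. Their intervals make no allowance for that choice, so an interval that excludes 1 is description only.

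Levels within the ring spanned a wider range than the ratios between the libraries. Per kb of transcript (the longest principal protein-coding model in GENCODE release 29), MCM7 was at 175 CPM per kb in shNRP2 and 193 CPM per kb in shControl, and MCM2 at 138 CPM per kb in shNRP2 and 143 CPM per kb in shControl. MCM6 was at 47.9 CPM per kb in shNRP2 and 43.0 CPM per kb in shControl, and MCM5 at 47.7 CPM per kb in shNRP2 and 53.2 CPM per kb in shControl. MCM7, MCM2, MCM4 and MCM3 followed each other in the same descending order in both libraries, while MCM5 and MCM6, nearly equal in shNRP2, changed places.

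**Figure D2:**
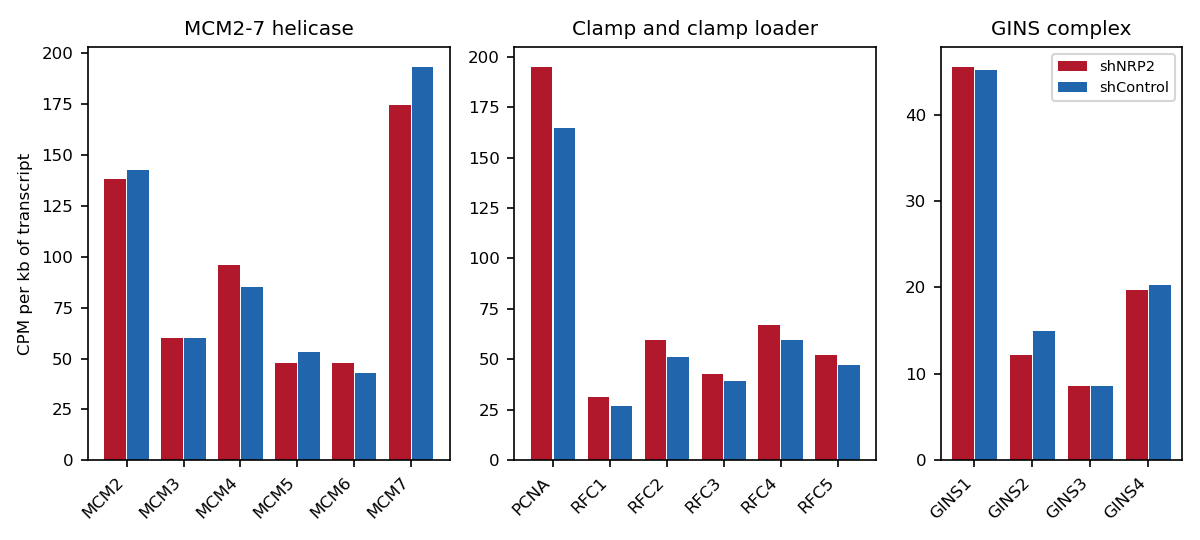
Level per kb of transcript, in CPM per kb, of the subunits of the MCM2 to MCM7 helicase, of the clamp with its loader and of the GINS complex, with the shNRP2 bar left of the shControl bar. MCM7, PCNA and GINS1 are the highest of their panels in both libraries, with GINS1 depending on the transcript model of GINS4, and the shNRP2 bar is the higher of each pair in the clamp and loader panel.

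The origin recognition genes were level. ORC1, the large ATPase subunit that is itself an E2F target, was at 61.5 CPM in shNRP2 and 61.1 CPM in shControl. ORC2, a core subunit, was at 39.1 CPM in shNRP2 and 38.0 CPM in shControl. ORC6, the smallest subunit, was at 50.3 CPM in shNRP2 and 50.0 CPM in shControl. The intervals of all 3 ratios included 1, as did those of 43.2% of all compared genes. The widest of the 3 ran from 0.933 to 1.14 for ORC2, so at this depth a difference of that size was not detectable.

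Among licensing factors, the loading ATPase CDC6 was level, at 155 CPM in shNRP2 and 156 CPM in shControl. CDT1, which brings the MCM ring to the origin, was at 116 CPM in shNRP2 and 110 CPM in shControl, a ratio of 1.06 (0.996 to 1.12). GMNN encodes geminin, the protein that binds CDT1 and blocks further licensing in S and G2 phase. It was at 39.5 CPM in shNRP2 and 45.9 CPM in shControl, a ratio of 0.861 (0.783 to 0.946). The reads of CDT1 over those of its inhibitor GMNN were 2.95 in shNRP2 and 2.40 in shControl, a ratio of ratios of 1.23 (1.10 to 1.37).

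Of 6 genes that activate the helicase, 1 had an interval below 1, against 24.0% of all compared genes, and 0 had one above 1, against 32.7%. GINS2, a subunit of the GINS complex that joins CDC45 on the MCM ring, was at 32.7 CPM in shNRP2 and 39.9 CPM in shControl, a ratio of 0.820 (0.740 to 0.908), the lowest among the 39 genes. The intervals of its partners included 1, those of GINS3 and GINS4 overlapping that of GINS2: GINS1 was at 148 CPM in shNRP2 and 147 CPM in shControl, GINS3 at 19.57 CPM in shNRP2 and 19.62 CPM in shControl, and GINS4 at 75.6 CPM in shNRP2 and 77.8 CPM in shControl. The ratio of GINS1 reads over GINS2 reads was 4.53 in shNRP2 and 3.68 in shControl, a ratio of ratios of 1.23 (1.10 to 1.38). CDC45 was at 67.7 CPM in shNRP2 and 63.0 CPM in shControl, and MCM10, which helps the activated helicase to leave the origin, at 85.7 CPM in shNRP2 and 84.7 CPM in shControl. Per kb, GINS3 had the lowest level of the 4 GINS genes, at 8.61 CPM per kb in shNRP2 and 8.63 CPM per kb in shControl, and GINS1 was at 45.6 CPM per kb in shNRP2 and 45.2 CPM per kb in shControl. GINS4 was below GINS1 by the longest transcript model, at 19.7 CPM per kb in shNRP2 and 20.3 CPM per kb in shControl, but above it by the shortest, at 65.2 CPM per kb in shNRP2 and 67.2 CPM per kb in shControl.

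The clamp and its loader stood on the high side together. PCNA was at 265 CPM in shNRP2 and 224 CPM in shControl, a ratio of 1.19 (1.14 to 1.23). RFC1, the large subunit of the loader, was at 151 CPM in shNRP2 and 130.4 CPM in shControl, a ratio of 1.16 (1.10 to 1.22). RFC2 was at 101 CPM in shNRP2 and 86.3 CPM in shControl, a ratio of 1.17 (1.10 to 1.247). All 6 genes of this group were above 1 with intervals that excluded it, which 32.7% of all compared genes also did. The small subunits RFC3, RFC4 and RFC5 had ratios of 1.08 (1.02 to 1.15), 1.13 (1.06 to 1.21) and 1.11 (1.03 to 1.18). The median log2 change of the group was 0.19, against 0.03 over all compared genes, and each of the 6 was above 0 under every scaling; with equal library totals the intervals of RFC3 and RFC5 included 1. None of the 6 was 25% higher on the log2(CPM + 1) scale. The antisense gene PCNA-AS1, looked up after the values were seen, was at 7.40 CPM in shNRP2 and 11.2 CPM in shControl, and the sources used here do not say whether counting used strand.

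The polymerases and primase went both ways, and in 2 enzymes the ratios of the subunits lay on opposite sides of 1. PRIM1, the catalytic subunit of primase, was at 61.3 CPM in shNRP2 and 49.5 CPM in shControl, a ratio of 1.24 (1.14 to 1.34). PRIM2, the large primase subunit, was at 35.8 CPM in shNRP2 and 38.8 CPM in shControl, a ratio of 0.922 (0.834 to 1.02). The reads of PRIM1 over PRIM2 were 1.71 in shNRP2 and 1.28 in shControl, a ratio of ratios of 1.34 (1.18 to 1.53). POLE2, the second subunit of polymerase epsilon on the leading strand, was at 18.3 CPM in shNRP2 and 14.8 CPM in shControl, a ratio of 1.24 (1.06 to 1.44). POLE, the catalytic subunit, was at 88.1 CPM in shNRP2 and 98.6 CPM in shControl, a ratio of 0.894 (0.839 to 0.952). The reads of POLE2 over POLE were 0.208 in shNRP2 and 0.151 in shControl, a ratio of ratios of 1.38 (1.17 to 1.63). The subunits of polymerase alpha, which extends the primer, did not part beyond counting error: POLA1 and POLA2 both had a ratio of 1.08, and the ratio of ratios of POLA2 over POLA1 was 0.999 (0.896 to 1.11). POLD1, the catalytic subunit of polymerase delta, was at 102 CPM in shNRP2 and 101 CPM in shControl.

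**Figure D3:**
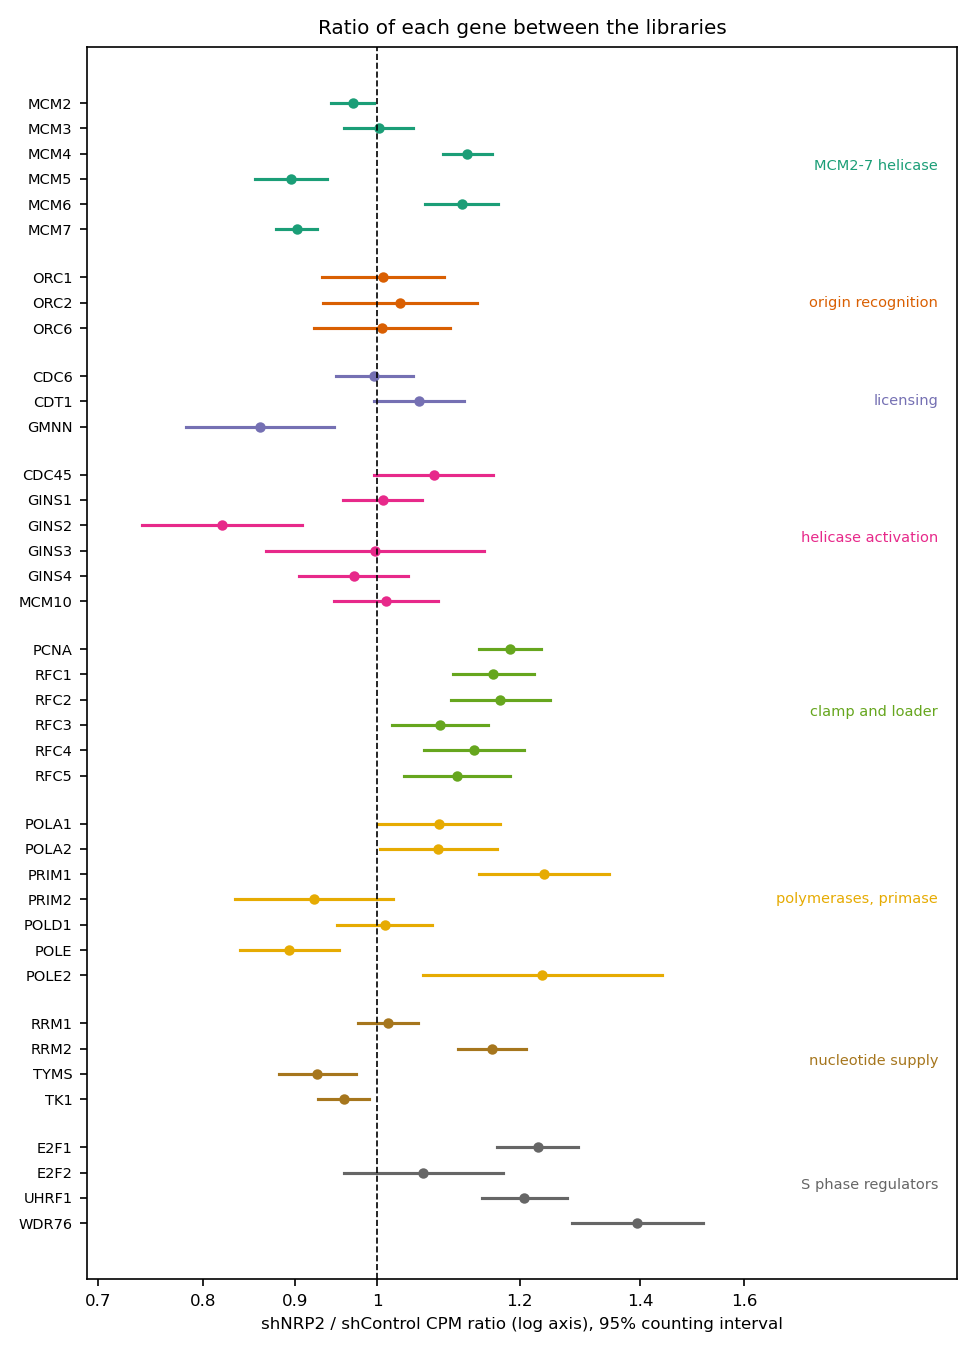
Ratio of shNRP2 CPM to shControl CPM of each gene (log axis, points) with its 95% counting interval (lines), grouped by role, with the dashed line at a ratio of 1. All 6 clamp and loader genes lie right of the line, MCM, primase and polymerase epsilon subunits lie on both sides, and WDR76 is the farthest right at 1.40.

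Genes that supply deoxynucleotides were mixed. RRM2, the small subunit of ribonucleotide reductase and the one whose amount varies with the cell cycle, was at 213 CPM in shNRP2 and 184 CPM in shControl, a ratio of 1.16 (1.11 to 1.21). RRM1, the large subunit, was at 259.8 CPM in shNRP2 and 256 CPM in shControl, a ratio of 1.01 (0.976 to 1.05). The reads of RRM2 over RRM1 were 0.819 in shNRP2 and 0.717 in shControl, a ratio of ratios of 1.14 (1.08 to 1.21). Thymidylate synthase (TYMS), which makes dTMP, was at 148 CPM in shNRP2 and 159.9 CPM in shControl, a ratio of 0.926 (0.881 to 0.973). Thymidine kinase (TK1), which salvages thymidine, was at 349.7 CPM in shNRP2 and 365 CPM in shControl, a ratio of 0.958 (0.928 to 0.989). TYMS and TK1 were thus slightly lower in shNRP2, a side that the other scalings, which all lowered these changes, could not alter. RRM2 was higher under every scaling, while RRM1 lay above 0 only as deposited. ENOSF1, whose exons overlap those of TYMS on the other strand, was level at 22.1 CPM in shNRP2 and 22.2 CPM in shControl.

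The regulators of S phase held the largest ratio of the 39 genes. WDR76, a WD repeat protein gene used as a marker of entry into S phase, was at 63.6 CPM in shNRP2 and 45.6 CPM in shControl, a ratio of 1.40 (1.28 to 1.52), and was the single gene at least 25% higher. E2F1, a transcription factor that activates replication genes, was at 158 CPM in shNRP2 and 128 CPM in shControl, a ratio of 1.23 (1.17 to 1.29). UHRF1, which reads hemimethylated DNA behind the fork and recruits DNMT1, was at 139.8 CPM in shNRP2 and 116 CPM in shControl, a ratio of 1.21 (1.14 to 1.27). E2F2, a second activating factor, was at 37.4 CPM in shNRP2 and 35.2 CPM in shControl, a ratio of 1.06 (0.958 to 1.18). All 4 were above 0 in log2 change under every scaling, and the intervals of WDR76, E2F1 and UHRF1 excluded 1 also with equal library totals. As deposited, 54.1% of all compared genes were above 0 and 32.7% had intervals above 1. With equal library totals 3084 of the 13316 compared genes had intervals above 1.

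Counted over the whole group, 16 of 39 ratios had intervals above 1, 41.0%, against 32.7% of all compared genes, and 8 of 39 had intervals below 1, 20.5%, against 24.0%. Of the 8714 compared genes within the same range of mean CPM, 36.2% had intervals above 1 and 26.5% below 1. Under equal library totals 12 intervals of the 39 were above 1 and 13 below, against 3084 and 4586 of all compared genes. An exact conditional binomial test of the reads, which compares the libraries and not the conditions, called 22 of the 39 different in either direction, against 52.2% of all compared genes, at a Benjamini-Hochberg adjusted p under 0.05. Of the 39, 27 were above 0 in log2 change, against 54.1% of all compared genes, and 12 were below 0. With equal library totals 18 were above 0 and 21 below. With changes centred on a median of 0 the split was 20 above and 19 below, and under quantile normalization 20 above and 18 below. The median log2 change of all compared genes fell too, from 0.03 as deposited to -0.05 with equal library totals and -0.008 under quantile normalization. When centred it is 0 by design. The downward shift was thus not particular to the 39 genes. Shares above 0 under these scalings are not given for all compared genes. Through every scaling, 18 stayed above 0 and 12 below. The other scalings lowered all 39 changes, so none of those 12 could have risen above 0. The 9 that did not keep 1 side (MCM3, ORC1, ORC2, ORC6, CDT1, GINS1, MCM10, POLD1 and RRM1) all had as deposited a ratio interval that included 1.

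Further replication genes were counted outside the 39. Of 68 for origin firing, fork proteins and nucleotide metabolism, 2 were past 1.5-fold on the high side, against 5.78% of all compared genes, and 0 on the low side, against 3.57%. At the lower threshold 4 of the 68, 5.88%, were at least 25% higher, against 15.1%, and 2, or 2.94%, at least 20% lower, against 12.1%, and their median log2 change was 0.02, against 0.03 over all compared genes. Of the 8714 genes within the CPM range of the 39, which some of the 68 fall outside, 239 were at least 1.5-fold higher and 171 lower. At the lower threshold 10.8% of the 8714 were higher and 8.38% lower. Among 14 further origin and firing genes the median was -0.07. MCM9, a helicase of DNA repair related to the MCM ring, was at 7.69 CPM in shNRP2 and 11.1 CPM in shControl, a ratio of 0.696 (0.565 to 0.854), and MTBP, which acts with TICRR in origin firing, at 5.57 CPM in shNRP2 and 7.59 CPM in shControl. CDC7, the kinase that phosphorylates the MCM ring, was at 50.9 CPM in shNRP2 and 60.5 CPM in shControl, a ratio of 0.841 (0.774 to 0.913), and ORC5 was at 41.0 CPM in shNRP2 and 34.6 CPM in shControl.

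Among 25 further fork genes the median was 0.05. POLD4, the smallest subunit of polymerase delta, was at 59.8 CPM in shNRP2 and 38.3 CPM in shControl, a ratio of 1.56 (1.43 to 1.71), where the catalytic subunit POLD1 was level. The single-strand binding protein RPA1 was at 348 CPM in shNRP2 and 295 CPM in shControl, the histone chaperone ASF1B at 94.8 CPM in shNRP2 and 77.5 CPM in shControl, and the fork protection factor TIPIN at 35.8 CPM in shNRP2 and 29.4 CPM in shControl. Among 29 further nucleotide genes the median was also 0.05, and with equal library totals the medians of the fork and nucleotide lists were both -0.03. TYMP, which breaks thymidine down, was at 63.2 CPM in shNRP2 and 40.7 CPM in shControl, a ratio of 1.55 (1.42 to 1.70), and RRM2B, the reductase subunit under p53 control, at 122.9 CPM in shNRP2 and 90.7 CPM in shControl, a ratio of 1.36 (1.28 to 1.44). GMPS, which makes GMP, was at 262 CPM in shNRP2 and 204 CPM in shControl, and the mitochondrial deoxyguanosine kinase DGUOK at 32.2 CPM in shNRP2 and 26.1 CPM in shControl. Exons of TYMP overlap a gene model of SCO2 on the same strand in GENCODE, and SCO2 was at 36.2 CPM in shNRP2 and 33.2 CPM in shControl, so the value of TYMP is uncertain. Exons of POLD4, DGUOK and MCM9 also overlap those of other annotated genes, and their values carry the same limit. TYMP and RRM2B had wider differences than RRM1, RRM2, TYMS or TK1, but they were named for having the largest changes of the 29, so the comparison is uneven.

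**Figure D4:**
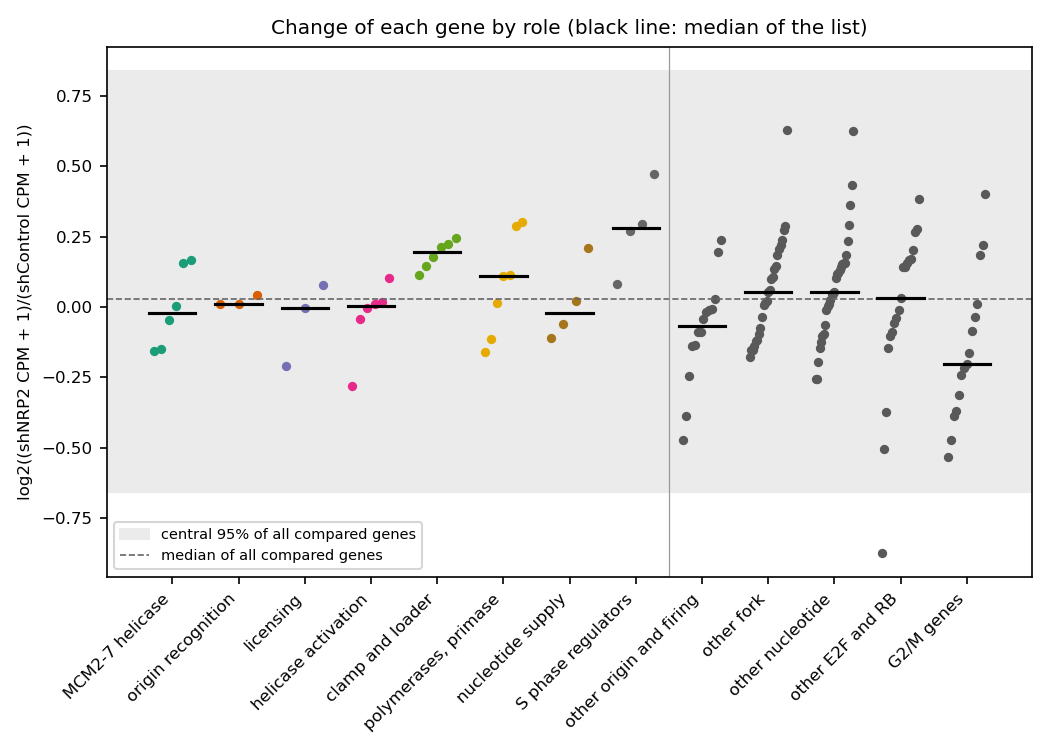
Log2 change (shNRP2 over shControl, CPM + 1) of each gene by role, left of the vertical line for the 39 genes and right of it for related lists, with the median of each list as a black line. The grey band holds the central 95% of all compared genes, from -0.66 to 0.84, and all 39 genes lie within it.

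In the E2F and RB network outside the 39, the largest difference was that of E2F4, an E2F factor known mainly as a repressor in quiescent and early G1 cells. It was at 29.3 CPM in shNRP2 and 54.5 CPM in shControl, a ratio of 0.538 (0.487 to 0.594), and was the single gene of 19 at least 1.5-fold lower, against 3.57% of all compared genes, while 0 of 19 were higher, against 5.78%. E2F7, a repressor of E2F targets late in S phase, was at 22.2 CPM in shNRP2 and 31.9 CPM in shControl, a ratio of 0.696 (0.617 to 0.784), and E2F5 at 7.59 CPM in shNRP2 and 10.1 CPM in shControl, a ratio of 0.750 (0.607 to 0.926). The cyclin CCNE2, which drives entry into S phase, was at 64.0 CPM in shNRP2 and 48.8 CPM in shControl, a ratio of 1.31 (1.21 to 1.42). Exons of E2F5 and CCNE2 overlap genes on the other strand, so their values are less certain. E2F6 and E2F8, named after their values were seen, had ratios of 1.16 (1.02 to 1.32) and 1.13 (0.992 to 1.29), and that of E2F3 was 0.9403 (0.870 to 1.02). The E2F factors thus lay on both sides, and E2F1 was higher under every scaling tried. E2F4, E2F5 and E2F7 were lower, a side that the other scalings, which all lowered these changes, could not alter. Genes of G2 and mitosis lay lower than the replication genes: 11 of 15 were below 0, against 45.9% of all compared genes, and their median was -0.20, against 0.03 over all compared genes. The cyclin CCNB1 was at 134 CPM in shNRP2 and 194 CPM in shControl, the mitotic kinesin KIF4A at 58.8 CPM in shNRP2 and 81.9 CPM in shControl, and the kinetochore motor CENPE at 37.6 CPM in shNRP2 and 49.6 CPM in shControl. CDK1 lay on the other side, at 463 CPM in shNRP2 and 350.0 CPM in shControl. No test of that difference between the lists is possible with 1 library per group.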

How the data were processed

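The 39 genes and the gene lists were chosen with earlier results of these data known, as were the role groups. Each deposited table gives, per the labels, 1 signal for each gene symbol, which is the authors' TMM-normalized count per library size (CPM). Per the submitters' processing notes, bcl2fastq 2.17, Bowtie2 2.1.0, RSEM 1.2.15 and edgeR were used with hg19; the sources used here give neither their roles nor the annotation or strand setting. The deposited signal columns sum to 1084413 in shNRP2 and 1024943 in shControl, more than unscaled CPM would, so the values were used as deposited and called CPM. In each library 100% of values were whole multiples of 1 read within 0.01 read (0.0472 CPM in shNRP2, 0.0487 CPM in shControl), and whole reads were recovered from them. Left out were 28 symbols turned into calendar dates, with 0.184% of reads in shNRP2 and 0.181% in shControl.

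Log2 changes used a pseudocount of 1 CPM, which understates changes of low genes, and a gene was compared where its mean reached 1 CPM. Ratio intervals are exact conditional binomial (Clopper-Pearson), and ratio-of-ratio intervals are exact conditional for a 2 by 2 table (scipy 1.17.1); both were computed at 95%. An exact conditional binomial test of recovered reads with Benjamini-Hochberg adjustment was added after seeing the data. The ratio intervals and the test were tried on simulated reads that held counting error only, which cannot show the spread between cultures. The ratio-of-ratio intervals were not part of that simulation. Of the related lists of replication, E2F and G2/M genes, the 4 with the largest absolute change are named, while any prostate or other-cell-type marker could be; genes outside this rule are noted as such. Transcript lengths come from GENCODE release 29 (GRCh38), another build than hg19, by symbol for 39 of 39 genes, and no coordinate was taken from it; exon overlaps were looked up in it after the values were seen. Alternatives were other pseudocounts (0.25 or 5 CPM), a filter of 5 CPM or none, totals made equal, changes centred on a median of 0, quantile normalization, a 2-fold threshold and intervals that exclude 1. How many cultures went into a library is unknown here, and 1 gene looked up in the check of cell identity is not reported here.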

Additional observations from a re-analysis of the deposited data

How the results depend on the processing

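No paired analysis was possible because each group holds 1 library, and leaving out a replicate was not possible for the same reason. Pseudocounts and all 3 scalings left the counts of the 39 genes past 1.5-fold at 0. The filters removed none of the 39, and the 2-fold threshold is the stricter one, so neither could change these counts. The count at least 20% lower was 1 with equal library totals, where GINS2 passed, against 0 as deposited. By counting intervals that exclude 1, 16 genes were higher and 8 lower, against 0 past 1.5-fold, and the exact conditional binomial test called 22, and 6954 of all genes against 1245 past 1.5-fold; counting error alone makes these intervals narrow at this depth. With equal library totals, 13 intervals lay below 1, against 8 as deposited. The median log2 change of the MCM2 to MCM7 genes was -0.10 with equal library totals and -0.11 under quantile normalization, against -0.02 as deposited, and that of the nucleotide supply genes was -0.10 under both, against -0.02 as deposited. Other medians moved by less than the counting error of their genes, although those of the origin recognition and helicase activation genes and of all 39 turned below 0 with equal library totals, those of origin recognition and helicase activation also with changes centred on a median of 0, and that of helicase activation under quantile normalization too. Single genes moved by more than their counting error in 16 of 39 cases with equal library totals and 10 of 39 under quantile normalization. Equal totals shifted all 39 by nearly the same amount, so that count marks the genes with the most reads and narrowest intervals. The number of all genes at least 1.5-fold higher was 769, 329 with a pseudocount of 5 CPM and 465 with a mean of at least 5 CPM; the number at least 1.5-fold lower was 476, 159 and 310 in the same order. At least 20% lower were 1605 of all genes, and 980 with a pseudocount of 5 CPM; at least 25% higher were 2017 and 1339.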
